A study of Mus musculus with 4 samples.

Results

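The genes described here are 8 members of the Nlrp family that are known for their expression in oocytes: *Nlrp4a*, *Nlrp4b*, *Nlrp4c*, *Nlrp4e*, *Nlrp9a*, *Nlrp9b*, *Nlrp9c* and *Nlrp14*. They were taken by name, and all 8 were found, each as 1 entry, among the 21957 genes of the expression table. Levels are FPKM, fragments scaled to transcript length and to the mapped fragments of the library, so levels of different genes can be set side by side. Oocytes came from female B6D2F1 (C57BL/6 x DBA) mice aged 6 to 8 weeks that had been primed with gonadotropin, and cumulus cells were removed. The GV library was made from germinal vesicle oocytes at 0 h of culture, MII from non-treated oocytes after 12 h, and TubA-10 and TubA-20 from oocytes cultured for 12 h with 10 or 20 μM tubastatin A (TubA), a small molecule made to inhibit the deacetylase HDAC6. These doses follow the sample titles, and the treatment field of the labels disagrees with them, with 20 μM entered for the TubA-10 oocytes and 11 μM for the TubA-20 oocytes. The MII pool held oocytes with a polar body, and the study describes oocytes under the higher dose as not reaching that stage, while the labels give no stage for the treated pools, so a difference in stage and an effect of the drug cannot be told apart. TubA was dissolved in DMSO, while the labels call the GV and MII oocytes non-treated. The title of the MII sample reads MII stage embryo, while the study describes matured oocytes, and they are called oocytes here.

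Each condition had 1 library, made from a pool of 100 oocytes. No spread between replicates can be given, and no difference below has a test. In such pools, fewer oocytes with a transcript and less RNA per oocyte cannot be told apart, and neither can less RNA and shorter poly(A) tails, because mRNA was selected with oligo(dT).

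NLR proteins share a nucleotide-binding NACHT domain and leucine-rich repeats, and many of them, such as NLRP3, sense infection or damage and assemble inflammasomes in immune cells. A branch of the Nlrp genes is instead known from the germ line, where the mRNAs build up in growing oocytes and are used before the embryonic genome takes over. *Nlrp5*, also called *Mater*, is the classic maternal effect gene of this branch. In mice the *Nlrp4* and *Nlrp9* genes have been copied several times, and *Nlrp14* is a gene that female mice need for fertility.

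All 8 genes lie on chromosome 7 (GRCm38, GENCODE M21 gene models), and all are annotated as protein-coding. In chromosomal order, *Nlrp4c* spans 6045161 to 6105150, *Nlrp4b* 10687789 to 10730168, *Nlrp9b* 19991465 to 20073306 and *Nlrp4e* 23301192 to 23362277, all on the plus strand. *Nlrp9c* (26322473 to 26403700, minus strand), *Nlrp4a* (26435113 to 26476142, plus strand) and *Nlrp9a* (26535023 to 26575615, plus strand) follow as direct neighbours. Gaps of 31.4 kb and 58.9 kb separate these neighbours, and no other gene of the table starts and ends inside their block of 253 kb. *Nlrp14* (107166990 to 107198102, plus strand) lies far from the rest.

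Coding sequences fell into 3 groups. Among the *Nlrp4* genes, aligned coding bases were from 78.1% (*Nlrp4a* and *Nlrp4b*) to 93.9% (*Nlrp4c* and *Nlrp4e*) identical. Among the *Nlrp9* genes they were from 82.8% (*Nlrp9b* and *Nlrp9c*) to 87.7% (*Nlrp9a* and *Nlrp9c*) identical. *Nlrp14* shared from 59.8% (*Nlrp4a*) to 63.1% (*Nlrp4b*) with the other genes, close to its values with *Nlrp5* (60.3%) and *Nlrp2* (60.7%). Position did not follow this grouping, since *Nlrp4a* lies between *Nlrp9c* and *Nlrp9a* but is 59.5% and 58.1% identical to them.

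**Figure D1:**
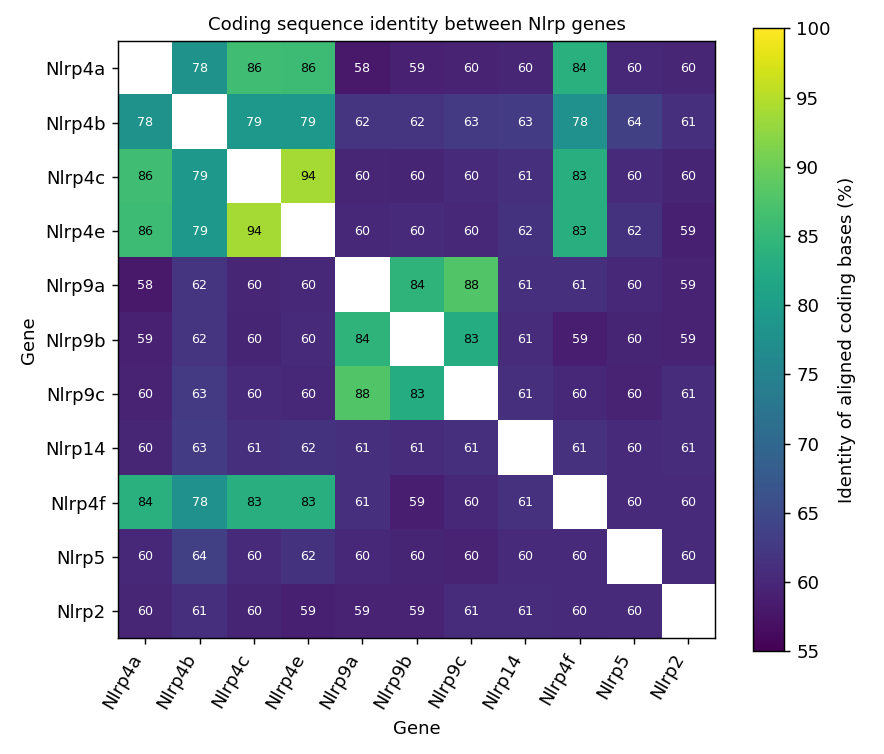
Identity of the aligned coding bases, in percent, for each pair among the 8 genes and *Nlrp4f*, *Nlrp5* and *Nlrp2*, from the principal transcript of each gene (colour scale from 55 to 100). The *Nlrp4* genes form one block, with 93.9% as the highest value, the *Nlrp9* genes form another, and *Nlrp14* stands near 60% with every gene.

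Genes this similar can trade reads in counting. Of the windows of 100 bases, the read length, in the principal transcript of *Nlrp4e*, 11.5% occur exactly in transcripts of another gene (the predicted genes *Gm8486*, *Gm16443* or *Gm8685*), so the level of *Nlrp4e* is uncertain. The share was 1.36% for *Nlrp9b*, 0.939% for *Nlrp4c*, 0.927% for *Nlrp9a* and 0.449% for *Nlrp9c*, and it was 0 for *Nlrp4a*, *Nlrp4b* and *Nlrp14*. *Nlrp9a* and *Nlrp9c* had no such window in common with each other, each sharing windows with *Nlrp9b* only. Windows that differ by a base or more are not counted by this measure.

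The start regions of the *Nlrp9* genes are shown because *Nlrp9a* and *Nlrp9c* were level in GV, where *Nlrp9b* was higher, and both were above *Nlrp9b* in TubA-20. Each sequence runs 5′ to 3′ on the gene's strand, from 250 bases before to 50 bases after the start in RefSeq (GRCm38.p6). Promoter entries matched 7 of the 8 genes by symbol, and *Nlrp14* is named only. Capitals mark E-boxes (CANNTG), the motif bound by basic helix-loop-helix factors, and the homeobox motifs TAATTG and TAATTA, in either orientation. The regions are chr7:26403651-26403950 on the minus strand for *Nlrp9c*, chr7:26534773-26535072 on the plus strand for *Nlrp9a*, and chr7:20007773-20008072 on the plus strand for *Nlrp9b*.
Nlrp9c: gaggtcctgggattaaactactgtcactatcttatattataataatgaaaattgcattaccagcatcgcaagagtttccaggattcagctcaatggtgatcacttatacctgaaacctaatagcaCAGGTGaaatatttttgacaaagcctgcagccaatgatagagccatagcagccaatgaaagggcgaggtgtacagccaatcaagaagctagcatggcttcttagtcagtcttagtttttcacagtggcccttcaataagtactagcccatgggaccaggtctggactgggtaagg
Nlrp9a: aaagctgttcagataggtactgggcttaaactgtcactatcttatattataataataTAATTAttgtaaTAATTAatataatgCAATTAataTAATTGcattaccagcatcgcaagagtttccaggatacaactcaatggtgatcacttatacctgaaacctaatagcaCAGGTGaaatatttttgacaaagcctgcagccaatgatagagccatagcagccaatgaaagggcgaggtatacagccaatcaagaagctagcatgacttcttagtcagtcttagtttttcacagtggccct
Nlrp9b: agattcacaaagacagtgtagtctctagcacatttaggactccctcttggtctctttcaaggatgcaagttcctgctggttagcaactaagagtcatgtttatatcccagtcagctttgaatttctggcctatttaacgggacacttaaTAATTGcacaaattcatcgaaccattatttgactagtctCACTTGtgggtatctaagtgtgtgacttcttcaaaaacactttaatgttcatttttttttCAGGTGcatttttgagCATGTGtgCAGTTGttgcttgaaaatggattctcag

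The regions of *Nlrp9c* and *Nlrp9a* aligned over 222 bases at 97.3% identity. Both hold a single E-box, CAGGTG, which starts 125 bases before the annotated start of *Nlrp9c* and 81 bases before that of *Nlrp9a*. The *Nlrp9b* region holds 4 E-boxes and aligned with either over no more than 14 bases, but its RefSeq start lies inside the GENCODE gene, downstream of the gene's 5′ end at 19991465, while the other 2 regions sit at the ends of their genes. Whether the 5′ end of *Nlrp9b* resembles them was not tested. *Nlrp4a* was also lowest in GV and highest in TubA-20, but its start regions aligned with those of *Nlrp9c* and *Nlrp9a* over only 9 to 23 bases. Any tie between start region and level was not tested. Over the 32851 start regions of this length in the RefSeq table, an E-box was in 72.3%, TAATTG in 8.00% and TAATTA in 5.29%, searched on both strands. An E-box was in the regions of all 7 genes, TAATTG in those of *Nlrp9a* and *Nlrp9b*, and TAATTA in that of *Nlrp9a*. The TATAAA motif was in the region of *Nlrp9b* and in 13.6% of all regions, and CCGCCC in the region of *Nlrp4c* and in 35.7% of all.

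Of the *Nlrp4* genes, *Nlrp4a*, *Nlrp4b* and *Nlrp4c* carried the E-boxes CACATG and CAGCTG in the same order with 26 or 27 bases between them. *Nlrp4a* and *Nlrp4b* have more than 1 annotated start, and the region of the upstream start of *Nlrp4a* does not hold the pair. The stretches are given from 10 bases before the first to 10 bases after the second, at chr7:26435559-26435617 for *Nlrp4a*, chr7:10687734-10687792 for *Nlrp4b* and chr7:6045138-6045195 for *Nlrp4c*, all on the plus strand, with the E-boxes in capitals.
Nlrp4a: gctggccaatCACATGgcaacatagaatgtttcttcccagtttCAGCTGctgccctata
Nlrp4b: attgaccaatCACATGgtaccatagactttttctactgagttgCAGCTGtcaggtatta
Nlrp4c: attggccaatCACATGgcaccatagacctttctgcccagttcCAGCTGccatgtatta

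CACATG followed by CAGCTG within 20 to 40 bases was in 0.213% of all start regions on either strand, a pattern picked out after the sequences had been seen. The regions of these 3 genes that hold the pair aligned with each other over 226 to 280 bases at 80.8% to 82.7% identity. Their matches are therefore not independent of each other. The region of *Nlrp4e* has E-boxes but not this pair. The 3 genes that hold it had unlike levels and changes, as given below, and a motif match is only a description of the sequence.

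*Nlrp14* had by far the highest level of the 8 genes. Its FPKM was 1273 in GV and 939 in TubA-20, while MII (1535) and TubA-10 (1523) were nearly equal. By level it was gene number 49 of the whole table in GV, number 36 in MII and in TubA-10, and number 89 in TubA-20. The log2 ratio of FPKM + 1, the measure of change used throughout, was 0.27 in MII and 0.26 in TubA-10 against GV. In TubA-20 it was −0.44 against GV, −0.71 against MII and −0.70 against TubA-10. Its share of the summed FPKM of the 8 genes lay between 64.5% and 66.1% in GV, MII and TubA-10 and was 49.6% in TubA-20.

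*Nlrp9c* differed most of the 8 genes between GV and TubA-20. GV was its low library (95.3 FPKM) and TubA-20 its high library (214 FPKM), and TubA-10 (138) and MII (151) lay between them. On the log2 scale TubA-20 was 1.16 above GV, 0.50 above MII and 0.62 above TubA-10. The MII library was 0.66 and TubA-10 0.53 above GV. The change of 1.16 was the only one of the 48 changes (8 genes in 6 comparisons) beyond 2-fold, in the comparison where 19.3% of all genes and 47.0% of those that reach 5 FPKM were, and it fell short of 2-fold when the median change of the libraries was set to 0, at 0.97.

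*Nlrp9a* was likewise lowest in GV (95.1 FPKM) and highest in TubA-20 (178 FPKM), with MII (154) and TubA-10 (152) nearly equal. All 3 cultured libraries were thus above GV, by 0.69 (MII), 0.67 (TubA-10) and 0.90 (TubA-20) on the log2 scale. The ratio of *Nlrp9c* to *Nlrp9a* was near 1 in GV and MII (0.983), and it was 0.909 under the lower dose and 1.20 under the higher.

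*Nlrp9b*, whose product is known as a sensor of viral RNA in the gut lining, was highest in TubA-10 (167 FPKM), followed by MII (146 FPKM). TubA-20 (135 FPKM) and GV (134 FPKM) were level, with a log2 change of 0.01 that turned negative with the median change set to 0 (−0.18) and after equal upper quartiles (−0.05). Among the 3 *Nlrp9* genes, *Nlrp9b* gave 41.3% of the summed FPKM in GV and 25.7% in TubA-20, while *Nlrp9c* gave 29.4% in GV and 40.6% in TubA-20. MII and TubA-10 were intermediate for both genes. A ratio of 2 genes within a library does not depend on how libraries are scaled. *Nlrp9c* stood at 0.711 times *Nlrp9b* in GV and 1.58 times *Nlrp9b* in TubA-20, with 0.829 times in TubA-10 and 1.03 times in MII.

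*Nlrp4a* had its highest level in TubA-20 (199 FPKM) and its lowest in GV (115 FPKM), and MII (146) and TubA-10 (147) were level. TubA-20 was 0.79 above GV and 0.45 above MII on the log2 scale. MII and TubA-10 stood 0.34 and 0.35 above GV.

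*Nlrp4b* was instead lowest in MII (144 FPKM), at −0.27 against GV (173 FPKM). TubA-10 (183 FPKM) and TubA-20 (177 FPKM) were close to GV. The change from GV to TubA-20 was 0.03, but −0.15 with the median change set to 0 and −0.02 after equal upper quartiles. *Nlrp4a* stood at 0.665 times *Nlrp4b* in GV and 1.12 times *Nlrp4b* in TubA-20, with 0.804 times in TubA-10 and 1.02 times in MII.

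*Nlrp4e*, whose depletion has been reported to stop preimplantation development, ran from 39.2 FPKM in MII and 41.9 in GV to 43.7 in TubA-20 and 45.3 in TubA-10. This was the narrowest range of the 8 genes, with the highest library 1.16 times the lowest, and part of the value may come from the shared windows given above. Relative to GV it changed by −0.10 (MII), 0.11 (TubA-10) and 0.06 (TubA-20). The first turned positive with equal FPKM sums (0.03) or equal *Gapdh* (0.13), and the others turned negative with the median change set to 0 (−0.03 and −0.13).

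*Nlrp4c* had the lowest level of the 8, from 4.78 FPKM in GV and 5.55 in TubA-10 to 6.60 in TubA-20 and 7.01 in MII. Relative to GV it was 0.47 (MII), 0.18 (TubA-10) and 0.40 (TubA-20) higher on the log2 scale. The number of fragments behind these values is not given in the table. *Nlrp4c* and *Nlrp4e* are the most similar pair in sequence, and their FPKM differed in every library.

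**Figure D2:**
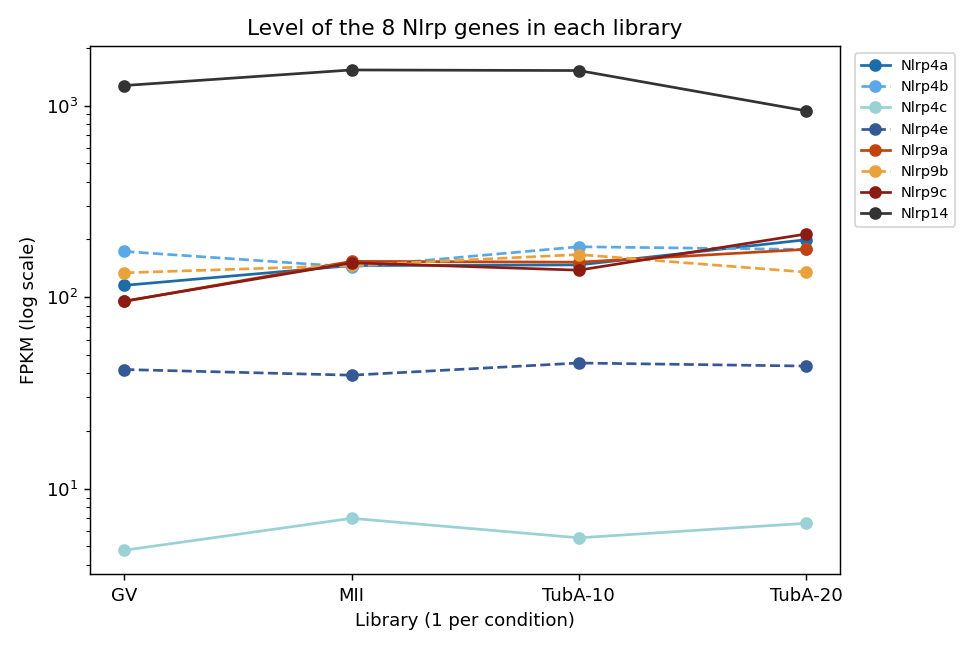
FPKM of the 8 genes (log axis) in the GV, MII, TubA-10 and TubA-20 libraries, 1 library per condition, with lines that only join the values of a gene. *Nlrp14* lies at 939 to 1535 FPKM, *Nlrp4c* at 4.78 to 7.01, and 5 genes lie close together in MII between 144 and 154 FPKM.

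The order of the levels differed between libraries. In GV it was *Nlrp14*, *Nlrp4b*, *Nlrp9b*, *Nlrp4a*, *Nlrp9c*, *Nlrp9a*, *Nlrp4e* and *Nlrp4c*, from high to low. In MII the 5 genes in the middle, from *Nlrp9a* (154 FPKM) to *Nlrp4b* (144 FPKM), were nearly equal, and with 1 library their order there cannot be set against any spread. In TubA-20 *Nlrp9c*, *Nlrp4a* and *Nlrp9a* stood at places 2, 3 and 4, and *Nlrp4b* and *Nlrp9b* at places 5 and 6, but *Nlrp9a* (177.7 FPKM) and *Nlrp4b* (177.4 FPKM) were nearly tied and their order carries no weight. *Nlrp14* was first, *Nlrp4e* seventh and *Nlrp4c* last in all 4 libraries. By level, 3 of the 8 genes were among the 1000 highest of the table in GV and 6 were in each of the other libraries.

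The summed FPKM of the 8 genes was similar in GV (1932) and TubA-20 (1892), and higher in MII (2322) and TubA-10 (2363). These sums were 0.310% (GV), 0.302% (TubA-20), 0.409% (MII) and 0.400% (TubA-10) of all FPKM. The similar sums of GV and TubA-20 hold different mixtures. *Nlrp14* was lower in TubA-20, while the summed FPKM of the 3 *Nlrp9* genes went from 324 in GV to 526 in TubA-20 and that of the 4 *Nlrp4* genes from 335 to 427.

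Culture without drug, MII against GV, was the first comparison. Here 6 of the 8 genes were above GV and 2 (*Nlrp4b*, and *Nlrp4e* except with equal FPKM sums or equal *Gapdh*) below. The median log2 change was 0.31 (0.53 with equal *Gapdh*, and 0.18 with the median change set to 0). The 8 genes ranged from −0.27 to 0.69. None passed 2-fold, while 11.4% of all genes did and 29.0% of the 7685 genes that reached 5 FPKM in either library did. The latter is the closer background, since all 8 genes reach 5 FPKM in each comparison. The median change of those 7685 genes was 0.11, and their middle 50% lay between −0.80 and 0.67, which took in 7 of the 8 genes, with *Nlrp9a* just above.

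In TubA-10 against GV all 8 genes were higher, from 0.08 for *Nlrp4b* to 0.67 for *Nlrp9a*. Their median was 0.29 (0.55 with equal *Gapdh*, and 0.15 with the median change set to 0). The values of *Nlrp4b* and *Nlrp4e* turned to −0.06 and −0.03 when the median change was set to 0. None passed 2-fold, against 6.34% of all genes and 16.0% of those with at least 5 FPKM. The middle 50% of the latter lay between −0.52 and 0.51, which took in 6 of the 8 genes. *Nlrp9a* and *Nlrp9c* lay above it, with changes above those of 87.0% and 76.8% of these genes. Against MII the TubA-10 library differed little, with a median of 0.00, 4 genes higher and 4 lower (the signs of *Nlrp4a*, *Nlrp9a* and *Nlrp14*, all near 0, changed with the scaling), and a range from −0.29 (*Nlrp4c*) to 0.35 (*Nlrp4b*). None passed 2-fold here either, and only 0.642% of all genes and 1.49% of those with at least 5 FPKM did.

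In TubA-20 against GV, 7 of the 8 genes were higher and *Nlrp14* was lower, with a median of 0.23 (0.04 with the median change set to 0). *Nlrp4b*, *Nlrp4e* and *Nlrp9b* were higher by 0.06 or less and turned lower with the median change set to 0. Only *Nlrp9c* passed 2-fold, where 19.3% of all genes and 47.0% of those with at least 5 FPKM did. Of the latter 20.2% were higher and 26.8% lower by that much. The change of *Nlrp9c* was above that of 86.9% of those genes, that of *Nlrp9a* above 74.4% and that of *Nlrp4a* above 69.0%. *Nlrp14* was at 36.5% on this scale, *Nlrp4c* at 54.6%, and *Nlrp4b*, *Nlrp9b* and *Nlrp4e* lay between 45.3% and 46.2%. The values of *Nlrp9a* and *Nlrp4a* therefore lay within the middle 50% of expressed genes, between −1.13 and 0.91, and *Nlrp9c* alone lay outside it.

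**Figure D3:**
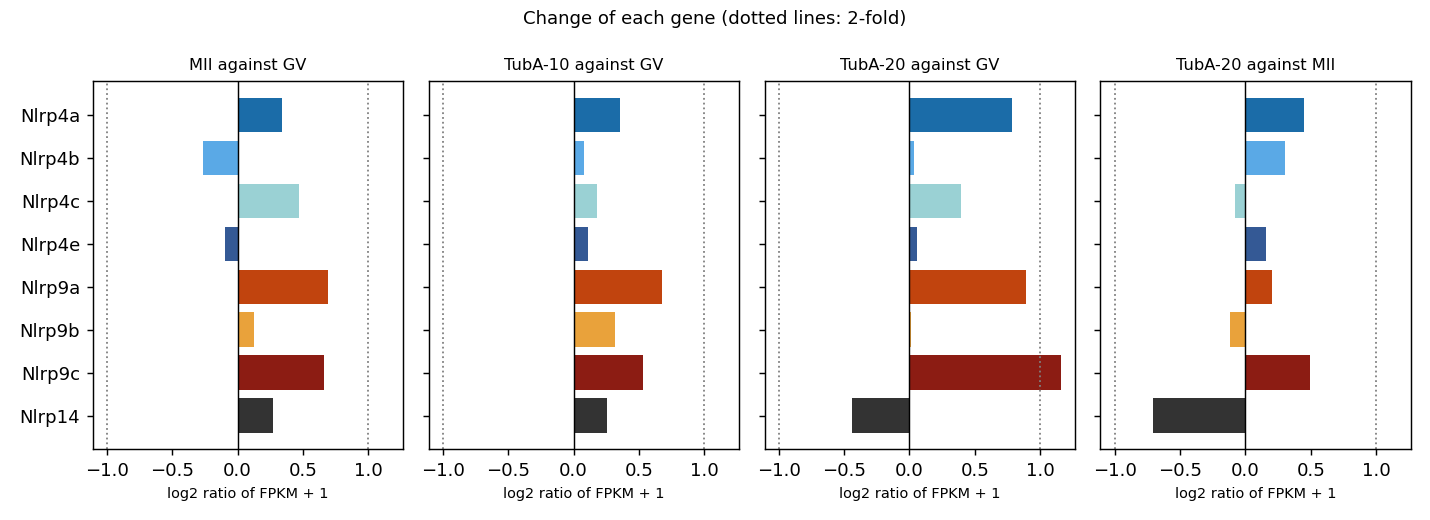
Change of each gene in 4 comparisons as the log2 ratio of FPKM + 1, with dotted lines at 2-fold and 1 library per condition. In TubA-20 against GV the bar of *Nlrp9c* reaches 1.16 and those of *Nlrp9a* and *Nlrp4a* 0.90 and 0.79, while *Nlrp14* points the other way at −0.44.

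Set against MII, the TubA-20 library had 5 of the 8 genes higher and 3 lower, from −0.71 for *Nlrp14* to 0.50 for *Nlrp9c*, with a median of 0.18 that shrank to between 0.02 (equal *Gapdh*) and 0.06 (equal upper quartiles) under 3 of the 4 scalings. The value of *Nlrp4e*, 0.15, went to 0 with equal *Gapdh*. None passed 2-fold, where 2.77% of all genes and 6.63% of those with at least 5 FPKM did. *Nlrp14* lay low on this scale, with only 11.3% of the genes of at least 5 FPKM showing a lower change, and *Nlrp9c* (88.9%) and *Nlrp4a* (85.7%) lay high. From TubA-10 to TubA-20 the changes ran from −0.70 for *Nlrp14* to 0.62 for *Nlrp9c*, with 4 genes higher and 4 lower. The median of 0.08 turned to −0.0036 with equal upper quartiles and −0.11 with equal *Gapdh*. None passed 2-fold, against 6.18% of all genes and 15.6% of those with at least 5 FPKM. All comparisons with GV share the GV library, and those with MII share the MII library, so they are not independent of each other.

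**Figure D4:**
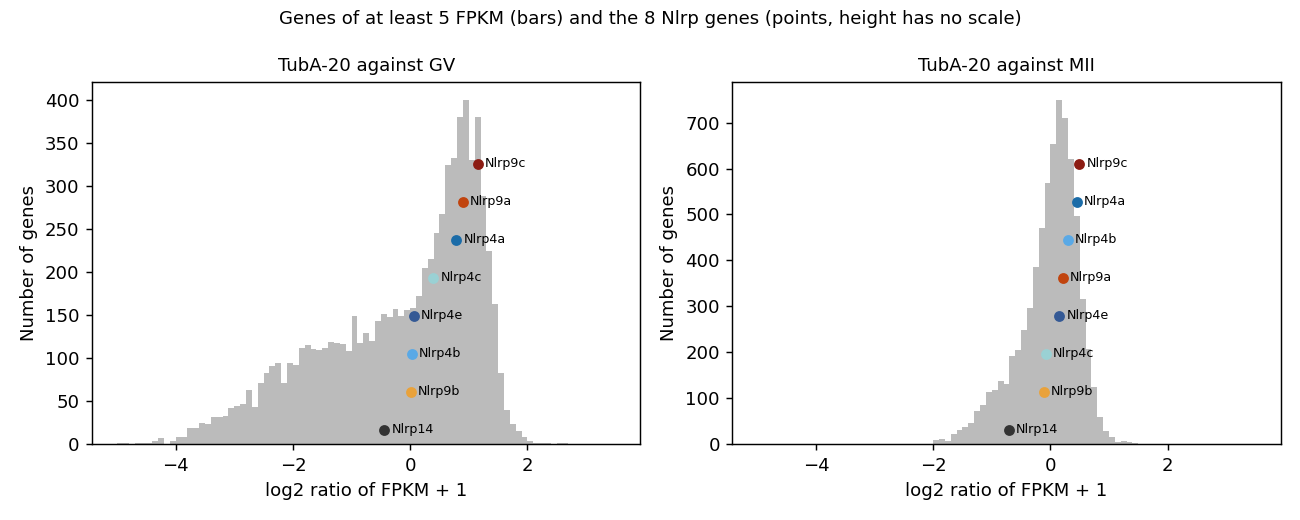
Number of genes by log2 ratio of FPKM + 1 in TubA-20 against GV and against MII (bars, genes that reach 5 FPKM in either library), with the 8 genes as points whose height has no scale. *Nlrp9c* lies to the right in both panels, at 1.16 and 0.50, and *Nlrp14* to the left, at −0.44 and −0.71.

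The 3 genes highest in TubA-20 relative to GV were the neighbours *Nlrp9c*, *Nlrp4a* and *Nlrp9a*. Their summed FPKM was 306 in GV and 591 in TubA-20, with 438 in TubA-10 and 451 in MII. Of their paralogs at other places on the chromosome, *Nlrp9b* and *Nlrp4b* had changes of 0.01 and 0.03, *Nlrp4e* of 0.06 and *Nlrp4c*, with the largest of the 4, of 0.40. The grouping by place was noticed after the values had been seen and has no test. It did not extend to all comparisons, since *Nlrp4b* (0.30) was above *Nlrp9a* (0.21) in TubA-20 against MII, and *Nlrp4c* (0.47) was above *Nlrp4a* (0.34) in MII against GV. Within 200 kb of the block, 6 further genes are in the table, and *Cyp2b23*, a cytochrome P450 gene, was the only one to reach 1 FPKM. It was at 3.22 FPKM in GV, 2.29 in TubA-10, 1.03 in MII and 0.495 in TubA-20, and its log2 change from GV to TubA-20 was −1.50.

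**Figure D5:**
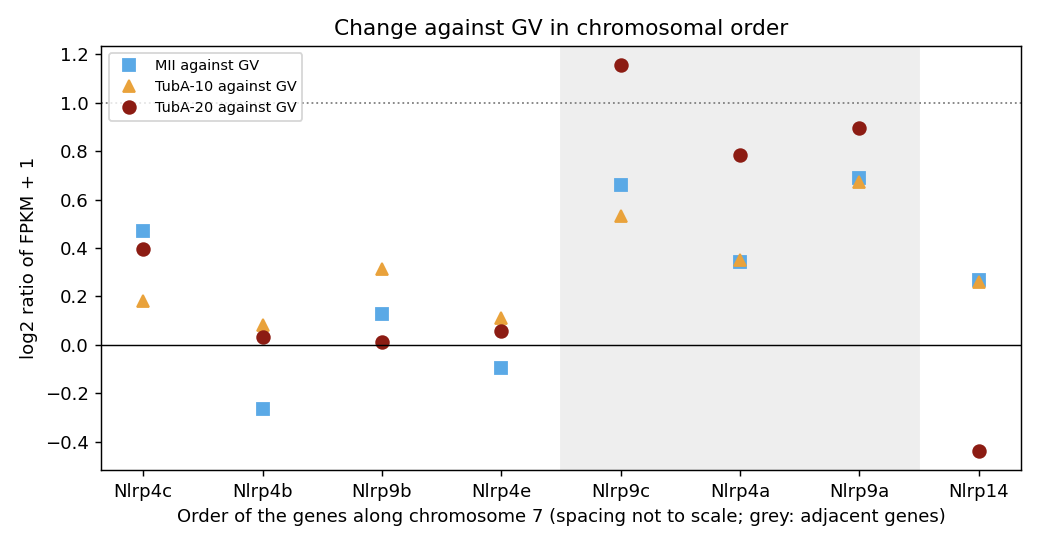
Log2 ratio of FPKM + 1 against GV for MII (squares), TubA-10 (triangles) and TubA-20 (circles), with the 8 genes in their order along chromosome 7 and spacing not to scale. The adjacent genes *Nlrp9c*, *Nlrp4a* and *Nlrp9a* (grey) hold the 3 highest TubA-20 values, 1.16, 0.79 and 0.90, and *Nlrp14* the lowest, −0.44.

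The ends of the transcripts are shown because the libraries were selected by poly(A) tail. The last 30 bases of the principal transcript (GENCODE M21) follow for 4 genes, 5′ to 3′, with the polyadenylation signal AATAAA in capitals.
Nlrp9a: cattcAATAAAcactaagcatgtgtgaaaa
Nlrp9b: catttAATAAAcactaagcgtgtttgaaaa
Nlrp9c: cattaAATAAAcactaagcatgtttgaaaa
Nlrp14: gtggaggttgagaaagtaaagcaaagcaca

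In the last 100 bases of the 3′ untranslated region, read on the sense strand, AATAAA was present in 5 of the 8 genes (*Nlrp4c*, *Nlrp4e* and the 3 *Nlrp9* genes) and in 64.7% of 19285 genes. The cytoplasmic polyadenylation elements TTTTAT or TTTTAAT, known from mRNAs whose tails are lengthened in maturing oocytes, were present there in *Nlrp4a* and *Nlrp4c* and in 17.9% of all genes. *Nlrp9a* and *Nlrp9c* hold TTTTAT farther from the end, 173 bases before it. The annotated 3′ untranslated regions of the *Nlrp9* genes and *Nlrp14* were short, from 184 to 201 bases, and those of the *Nlrp4* genes ran from 355 to 1003 bases. The signal was not found in the annotated region of *Nlrp14*, which says only that these letters are not in this transcript model.

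The rest of the family gives the setting. Of 23 genes of the NLR and inflammasome list, 19 stayed below 1 FPKM in all 4 libraries and 3 (*Nlrp1b*, *Ciita* and *Il1b*) were listed at 0 throughout. *Nlrp3*, the best known inflammasome sensor, reached at most 0.114 FPKM and *Pycard*, its adaptor, 0.330, both in MII. *Nlrc4*, the partner of the NAIP sensors of bacterial proteins, was the only one to reach 5 FPKM, with 6.12 FPKM in GV, 7.35 in TubA-10, 7.86 in MII and 12.9 in TubA-20. In TubA-20 against GV 0 genes of this list passed 2-fold upward on the log2 scale of FPKM + 1 and 1 (*Nod2*, at −1.20) downward, where 19.3% of all genes passed in either direction, and the median change was −0.03. The 19 genes below 1 FPKM throughout cannot pass on this scale. By plain FPKM the ratio to GV was 2.10 for *Nlrc4* (0.96 on the log2 scale), 0.187 for *Il18* (−0.93) and 0.390 for *Naip1* (−0.88), so the count says little of this list.

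Other oocyte Nlrp genes had other profiles. *Nlrp2* was at 203 FPKM in GV and between 61.4 (MII) and 73.1 (TubA-10) in the cultured libraries, with log2 changes against GV of −1.71 (MII), −1.46 (TubA-10) and −1.50 (TubA-20). *Nlrp5* was lowest in GV (197 FPKM) and highest in MII (299), with TubA-10 (263) and TubA-20 (238) between them. *Nlrp4f*, on chromosome 13, was highest in GV (275 FPKM), followed by TubA-20 (233), TubA-10 (213) and MII (165). The transcribed pseudogene *Nlrp4g* lay between 41.6 FPKM (GV) and 47.0 (TubA-20), and its reads may be shared with other *Nlrp4* copies.

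Among the 8 genes listed for the subcortical maternal complex, an assembly of maternal proteins under the egg membrane that holds NLRP5, the median change in TubA-20 against GV was −0.66, with 1 gene more than 2-fold higher (*Zbed3*) and 3 lower (*Nlrp2*, *Khdc3* and *Padi6*), where 47.0% of genes that reach 5 FPKM passed 2-fold. In TubA-20 against MII the median was −0.13, with 0 genes more than 2-fold higher and 2 lower, where 6.63% passed. The lower genes were *Khdc3*, at 1422 FPKM in MII and 531 in TubA-20, and *Padi6*, at 776 and 350. In TubA-10 both were instead above MII, at 2311 and 987 FPKM. The median of the list in TubA-10 was 0.30 against MII, with 6 genes higher and 2 lower, and 0.22 against GV. *Zbed3* was at 2792 FPKM in MII and 5213 in TubA-20. The 6 genes listed as nuclear import and DNA methylation partners tied to *Nlrp14* (*Kpna7*, *Kpna2*, *Ipo5*, *Uhrf1*, *Dnmt1* and *Dppa3*) had a median change of −0.18 in TubA-20 against MII, with 0 past 2-fold either way and *Kpna2*, an importin, lowest at −0.55. In TubA-20 against GV their median was −0.03, and *Kpna2*, at −1.28, was the only one past 2-fold. In TubA-10 against MII the median of these 6 genes was instead 0.16. There *Kpna2* was higher by 1.23 and the only one past 2-fold, where 1.49% of genes that reach 5 FPKM passed.

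The genes nearest in profile were ranked by the distance between log2 changes against GV in the 3 cultured libraries, among 6361 other genes that reached 10 FPKM in any library. For *Nlrp14* these were *Pcbd2* (distance 0.13), *Kctd3* (0.14) and *Bsg* (0.14), and 7 genes lay within 0.2. A median profile was taken over the members that reached 10 FPKM in any library, which left out *Nlrp4c* (at most 7.01 FPKM). It therefore differs from the medians of the 8 genes given above. Nearest to it were *Gmds* (0.04), *Naa50* (0.05) and *Prkar1a* (0.08), with 57 genes within 0.2. Profiles like those of *Nlrp9c* and *Nlrp9a* were more frequent, with 223 and 206 genes within 0.2, led by *Usp19* (0.04) and *Cip2a* (0.03).

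The labelled cell type was checked with marker lists. All 10 oocyte markers were above 1 FPKM in every library, and their summed FPKM was 10013 (GV), 12094 (MII), 10541 (TubA-10) and 13747 (TubA-20), with *Oosp1* the highest in each. The 12 cumulus and granulosa markers summed to between 8.85 and 16.3 FPKM, the highest being *Inha* in GV and *Cyp19a1* in MII (8.60 FPKM), TubA-10 (7.42) and TubA-20 (10.3), while *Foxl2* was listed at 0 in all 4 libraries. The 8 blood and immune markers summed to between 1.64 and 2.31 FPKM, nearly all from *Cd68*, with the hemoglobin genes listed at 0. The part of other cells in the levels above was not tested.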

How the data were processed

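RNA-seq of 4 oocyte libraries was used, 1 per condition. The methods of the study describe pools of 100 oocytes, while its discussion speaks of single oocytes, and the labels and the methods differ on the RNA extraction reagent. The authors deposited 1 table of FPKM values, made with cufflinks for a strand-specific library on mm10. The submitters' processing notes name STAR 2.5.0, Cufflinks and Cuffdiff 2.2.1. Beyond the library type, cufflinks was run with its defaults, which divide a read that maps to several places evenly among them, and the settings of the aligner are not given in the sources used here. Versioned Ensembl identifiers were given symbols by identifier, which matched 21794 of 21959 entries, and entries of a symbol were summed.

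Changes are log2 ratios of FPKM + 1, a scale that understates the change of low genes, and a gene was counted past 2-fold with no filter on low values. With 1 library per condition no test was made. All 8 genes, the NLR and inflammasome genes, the maternal complex genes, the *Nlrp14* partners and the genes nearest in profile were named by rule, and some other genes were named after their values had been seen. The 8 genes and the lists were chosen with earlier results of these data known.

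FPKM tables hold no read totals. From the step between low values, the depth of each library against GV was estimated at 1.62 (MII), 1.70 (TubA-10) and 0.896 (TubA-20). The estimates are rough, since the read totals stated in the study, which are not used here, put TubA-20 above GV rather than below it.

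Start regions are from RefSeq (GRCm38.p6), and transcripts are the principal GENCODE M21 models on GRCm38, the assembly of mm10. Coding sequences were aligned end to end with biopython 1.88. Python 3.11.15, numpy 2.4.6, pandas 2.3.3 and matplotlib 3.10.9 were used, and the fold calculation was tested on simulated data. Alternatives were a pseudocount of 0.1 or 0.01, a minimum of 1 or 5 FPKM, and libraries scaled to a median change of 0, equal FPKM sums, equal upper quartiles or equal *Gapdh*. The median change set to 0 was that of the genes at 1 FPKM or more in all 4 libraries.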

Additional observations from a re-analysis of the deposited data

How the results depend on the processing

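Over the 6 alternatives that can change a single gene (a minimum FPKM cannot), 273 of the 288 recomputed changes of single genes kept their direction and their side of 2-fold, 14 turned sign from small values and 1, *Nlrp9c* in TubA-20 against GV, fell below 2-fold. Scaled to a median change of 0, 0 of the 8 genes were therefore more than 2-fold higher in that comparison. The median of the 8 genes in TubA-10 against MII turned to −0.055 with equal FPKM sums, −0.028 with equal upper quartiles and −0.0023 with the median change set to 0. The median in TubA-20 against MII, 0.18, was 0.040 with equal FPKM sums, 0.063 with equal upper quartiles and 0.024 with equal *Gapdh*, and that in TubA-20 against GV, 0.23, was 0.038 with the median change set to 0. In TubA-20 against TubA-10 it turned to −0.0036 with equal upper quartiles and −0.11 with equal *Gapdh*. Scaling to a median of 0 took 0.13 (MII), 0.14 (TubA-10) and 0.19 (TubA-20) off the median change against GV of the genes at 1 FPKM or more in all 4 libraries. Equal FPKM sums raised that of MII by 0.11, and equal *Gapdh* raised it by 0.19 and that of TubA-10 by 0.23. In TubA-20 against MII the median moved by −0.13, −0.11 and −0.14 with equal sums, upper quartiles and *Gapdh*, and in TubA-20 against TubA-10 by −0.17 with equal *Gapdh*.

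The share of genes past 2-fold rose when low genes were left out, since FPKM + 1 holds low genes below 2-fold. With a minimum of 1 FPKM it was 23.5% (MII), 13.1% (TubA-10) and 39.4% (TubA-20) against GV, 1.37% (TubA-10) and 5.91% (TubA-20) against MII, and 13.1% in TubA-20 against TubA-10. With a minimum of 5 FPKM it was 29.0%, 16.0%, 47.0%, 1.49%, 6.63% and 15.6% in that order. Counting error could not be given, because the table holds no fragment counts, and a second library per condition would be needed to set any difference against the spread between pools.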
